A study of Homo sapiens with 6 samples.

Results

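The E2F and RB family followed here comprises 10 genes chosen by name, E2F1 to E2F8, RB1 and RBL1, and all 10 have a row among the 19491 genes in the deposited tables. RNA sequencing was performed on PC-3 cells, an established androgen-insensitive line from a bone metastasis of prostate cancer, grown in RPMI medium with fetal bovine serum and pyruvate in every group. The control cells, labelled WT, were untreated, and the other groups received 1 mM GPNA or 10 mM BenSer for 48 h. The labels give no dose, and those used here come from a figure legend of the paper. GPNA (γ-glutamyl-p-nitroanilide) and BenSer (O-benzylserine) are amino acid derivatives used to block ASCT2 (SLC1A5), the transporter that brings glutamine into many tumour cells, and both are known to act on other amino acid transporters as well. The study asked what blocking this uptake does to gene expression, cell cycle genes included.

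E2F proteins bind DNA, most of them as dimers with a DP partner, at the promoters of genes needed for DNA synthesis and cell division. E2F1, E2F2 and E2F3 are classed as activators, E2F4 and E2F5 as repressors that act with the pocket proteins, E2F6 as a repressor that works without them in Polycomb-type complexes, and E2F7 and E2F8 as atypical repressors that need no DP partner. The pocket proteins RB1 (pRB), RBL1 (p107) and RBL2 (p130) hold E2F proteins in check until cyclin-dependent kinases phosphorylate them late in G1 phase. Several genes of the family, E2F1 and E2F2 among the activators, E2F7, E2F8 and RBL1, are themselves known E2F targets whose transcripts peak around the G1/S transition. Loss of RB1 is a known event in advanced prostate cancer.

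The promoters of the members for which the letters of an E2F core were found are shown because the family is known to control its own transcription. Windows of 250 bases before the RefSeq transcription start (GRCh38.p14) were available for 8 of the 10 members, with E2F5 and E2F8 named only. Each window was searched on both strands for the letters TTCCCGC, for TTCGCGC, for TTGCCGC and for TTGGCGC, of which at least 1 occurred in 10.9% of 35116 promoter windows of the same length. One or more was found in 5 of the 8 members, and not in the windows of E2F4 and E2F6. The RB1 window, which held none either, matched GRCh37 at an internal start 172706 bases into the gene, so the main promoter of RB1 was not searched. A match describes letters and not a bound site. The windows below run 5′ to 3′ on the strand of the gene, capitals mark the matches, which did not overlap each other, and a match on the other strand appears as its reverse complement.
E2F1, chr20:33686386-33686635, minus strand: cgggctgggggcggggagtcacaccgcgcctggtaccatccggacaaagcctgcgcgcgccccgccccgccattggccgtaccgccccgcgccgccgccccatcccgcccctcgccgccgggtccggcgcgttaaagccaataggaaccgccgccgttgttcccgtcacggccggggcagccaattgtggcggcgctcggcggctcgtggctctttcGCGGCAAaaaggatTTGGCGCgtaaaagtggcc
E2F2, chr1:23531234-23531483, minus strand: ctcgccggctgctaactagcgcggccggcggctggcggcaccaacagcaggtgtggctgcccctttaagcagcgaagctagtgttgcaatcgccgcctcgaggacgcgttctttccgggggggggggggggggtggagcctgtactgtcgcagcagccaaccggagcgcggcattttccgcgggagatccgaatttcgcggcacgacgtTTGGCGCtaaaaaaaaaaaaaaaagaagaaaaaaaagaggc
E2F3, chr6:20401629-20401878, plus strand: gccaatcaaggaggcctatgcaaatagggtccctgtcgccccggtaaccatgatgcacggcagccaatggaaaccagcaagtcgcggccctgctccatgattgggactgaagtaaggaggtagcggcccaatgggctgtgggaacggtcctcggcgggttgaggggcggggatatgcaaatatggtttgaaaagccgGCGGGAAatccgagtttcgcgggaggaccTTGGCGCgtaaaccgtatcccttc
E2F7, chr12:77065570-77065819, minus strand: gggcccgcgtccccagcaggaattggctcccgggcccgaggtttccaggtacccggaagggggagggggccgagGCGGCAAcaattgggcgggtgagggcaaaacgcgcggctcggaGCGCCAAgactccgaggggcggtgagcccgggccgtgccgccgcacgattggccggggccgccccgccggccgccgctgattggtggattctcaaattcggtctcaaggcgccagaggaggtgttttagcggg
RBL1, chr20:37095998-37096247, minus strand: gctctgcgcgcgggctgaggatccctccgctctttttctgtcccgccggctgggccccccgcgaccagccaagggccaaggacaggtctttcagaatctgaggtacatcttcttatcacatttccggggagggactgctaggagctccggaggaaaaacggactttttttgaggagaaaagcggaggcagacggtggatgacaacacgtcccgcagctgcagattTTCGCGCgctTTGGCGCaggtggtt
In E2F1, E2F2, E2F3 and RBL1 the letters TTGGCGC stood on the strand of the gene, starting 19, 41, 24 and 15 bases before the start. E2F1 held a further TTGCCGC from 33 to 27 bases before the start on the other strand, E2F3 a TTCCCGC from 53 to 47 on the other strand, and RBL1 a TTCGCGC from 25 to 19. The matches in E2F7, TTGCCGC at 176 to 170 and TTGGCGC at 133 to 127 bases before the start, both lay on the other strand and farther away. For E2F3 this is the upstream start, and the window of its other RefSeq start, with 77.6% G and C, held none.

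The 6 libraries, 2 per group, held 23077986 to 32178154 reads, of which 51.6% to 52.7% fell on listed genes. Libraries of the same group differed from each other hardly beyond the noise of counting (chi-square over degrees of freedom 1.05 to 1.06, and 5.50 to 20.7 for libraries of different groups). Each group was therefore treated as 1 sample, without a p-value for either treatment. The paper describes more replicates per group than the 2 libraries analysed here. These values cannot tell whether those 2 came from separate cultures. Levels are reads per 1000000 reads of the library (CPM), a ratio is the log2 of treated over control CPM with the reads of both libraries merged, and its exact 95% interval covers counting error only. A gene was counted as lower or higher when it differed at least 1.5-fold, a log2 ratio of 0.585. The GPNA and BenSer comparisons share the control libraries, so that a high or low control value enters both. All 5 epithelial markers were listed (summed CPM of 1252 in untreated cells, then 1246 for GPNA and 1366 for BenSer), beside 2 of 5 androgen receptor programme genes (summed CPM 18.2, 19.7 and 26.3) and 1 of 8 markers of other cell types (COL1A1, at 3.73 to 5.57 CPM). Their part in the results below was not tested.

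With BenSer, E2F8 and E2F2 were lower by 1.5-fold or more and no member was higher. That is 2 of 10 members, where 5.54% of 15362 measured genes were lower and 5.32% were higher by this rule. With GPNA, 0 of 10 members passed in either direction, where 1.60% of 15041 genes were lower and 2.40% higher. The ratios with BenSer ran from -0.91 for E2F8 to 0.05 for E2F7, with a median of -0.24 beside -0.041 for all measured genes. With GPNA they ran from -0.25 for E2F1 to 0.07 for E2F7, with a median of -0.12 beside -0.043. No member was at least 2-fold changed with either compound.

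By the counting interval alone, 7 of 10 members lay below the control with BenSer (E2F1, E2F2, E2F3, E2F4, E2F8, RB1 and RBL1), and 29.9% of all genes did. None lay above it, where 21.4% of genes did. Whatever the interval, 8 members had a ratio below 0 and 2 above it, as had 55.8% and 44.2% of genes. With GPNA 4 members lay below the control (E2F1, E2F5, RB1 and RBL1), where 24.2% of genes did, and none above it, where 11.0% did. In all, 9 GPNA ratios were below 0 and 1 above it, as were those of 59.2% and 40.8% of genes. The GPNA count depended on scaling: with the trimmed mean of M-values (TMM) or DESeq2 size factors, E2F1 and RBL1 remained below the control and the interval of E2F7 lay above it. Among all genes 17.4% then lay below and 15.6% above under TMM, and 17.7% and 15.4% with size factors. The 7 members with BenSer were the same under these scalings, and the interval of E2F7 lay above 0 there too, where 24.8% of genes lay below and 26.3% above under TMM. Bulk RNA cannot tell fewer cells that contain a transcript from less of it per cell.

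**Figure D1:**
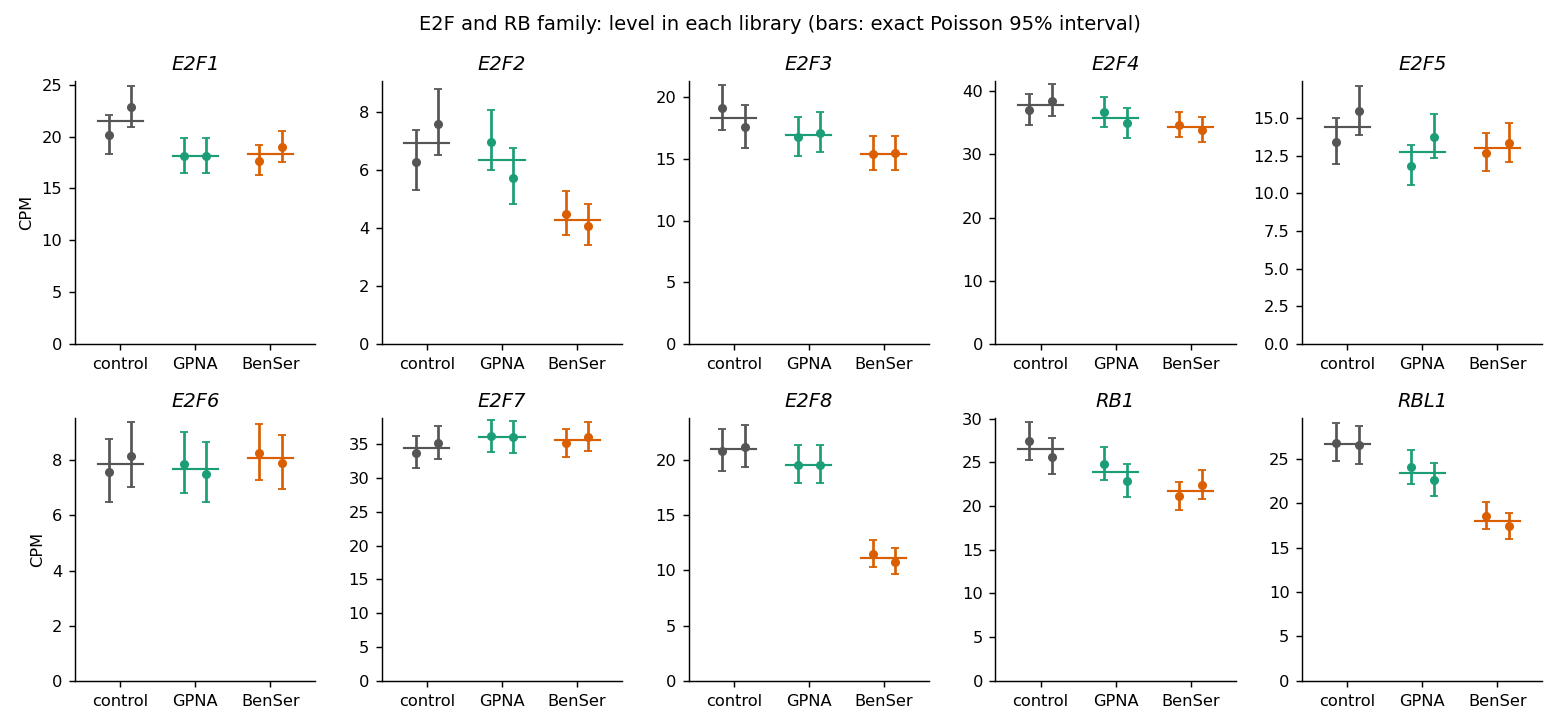
CPM of each member (vertical axis, from 0) in the control, GPNA and BenSer libraries (horizontal axis). Each point is 1 library with its exact Poisson 95% interval and each horizontal line is the merged value of a group. For E2F8, E2F2, RBL1, E2F3, RB1 and E2F4 both BenSer libraries lie below every control and GPNA library, narrowly for RB1 and E2F4. The E2F6 libraries of the 3 groups overlap.

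E2F1, the activator that also links the family to apoptosis (ENSG00000101412, in GRCh37, as for the other members below, at chr20:32263283-32274191, minus strand), measured 20.1 and 22.9 CPM in the 2 control libraries, 18.1 and 18.1 in the GPNA libraries, and 17.7 and 19.0 in the BenSer libraries. The treated libraries all lay below both control libraries and overlapped each other. The ratio was -0.25 (-0.38 to -0.12) with GPNA and -0.23 (-0.35 to -0.11) with BenSer. E2F1 thus stood at 0.843 times the control with GPNA and 0.853 times with BenSer. The interval of the BenSer to GPNA ratio, -0.11 to 0.14, spans 0.

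E2F2, an activator of S phase entry (ENSG00000007968, chr1:23832930-23857725, minus strand), was the member with the lowest level per length, with 6.29 and 7.58 CPM in the 2 control libraries, 6.98 and 5.74 in the GPNA libraries, and 4.48 and 4.07 in the BenSer libraries. The GPNA libraries overlapped the control, and both BenSer libraries lay below all others. The ratio was -0.12 (-0.35 to 0.10) with GPNA and -0.70 (-0.94 to -0.46) with BenSer, that is 0.616 times the control. These values rest on 274 to 326 reads per group. The 1.5-fold call for E2F2 hung on 1 library, since without control replicate 2 the BenSer ratio was -0.56.

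E2F3, the activator with alternative promoters (ENSG00000112242, chr6:20402110-20493945, plus strand), measured 19.1 and 17.5 CPM in the 2 control libraries, 16.7 and 17.1 in the GPNA libraries, and 15.4 and 15.4 in the BenSer libraries. All treated libraries were below the control ones and the BenSer libraries were lowest. Its ratio was -0.11 (-0.25 to 0.02) with GPNA and -0.25 (-0.38 to -0.12) with BenSer, 0.841 times the control. Reads were counted per gene, so transcripts from the separate starts were not told apart.

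Within the activators, the make-up of the reads changed little with GPNA and shifted away from E2F2 with BenSer. E2F2 took 14.8% (13.4% to 16.4%) of the reads of E2F1, E2F2 and E2F3 in the control, 15.4% (13.9% to 17.0%) under GPNA and 11.2% (10.0% to 12.6%) under BenSer, by exact binomial intervals. E2F1 took 46.0%, 43.8% and 48.2% and E2F3 39.2%, 40.9% and 40.5% of them. Such shares do not depend on the library total.

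E2F4, a repressor that occupies promoters in quiescent cells and the most abundant member per length (ENSG00000205250, chr16:67226058-67232821, plus strand), measured 37.1 and 38.5 CPM in the 2 control libraries, 36.7 and 34.9 in the GPNA libraries, and 34.7 and 33.9 in the BenSer libraries. Both control libraries lay above the treated ones. Its ratio was -0.08 (-0.17 to 0.02) with GPNA and -0.14 (-0.23 to -0.05) with BenSer. E2F4 thus kept over 0.9 of its control level with either compound.

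E2F5, its closest relative (ENSG00000133740, chr8:86089389-86129387, plus strand), measured 13.4 and 15.4 CPM in the 2 control libraries, 11.8 and 13.7 in the GPNA libraries, and 12.7 and 13.3 in the BenSer libraries. The control and GPNA libraries overlapped, and the ratios of -0.17 (-0.33 to -0.02) and -0.15 (-0.30 to 0.00) are close to the limit of the counting error. The share of E2F5 in the reads of E2F4 and E2F5 was 27.6%, 26.3% and 27.5%. E2F5 shares 991 exon bases, 16.5% of its exons, with RBIS on the opposite strand, and the strand setting of the counting is not given in the sources used here.

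E2F6, the repressor of the Polycomb-type complexes (ENSG00000169016, chr2:11584501-11606303, minus strand), measured 7.58 and 8.15 CPM in the 2 control libraries, 7.87 and 7.50 in the GPNA libraries, and 8.27 and 7.89 in the BenSer libraries. The groups overlapped, and the ratios were -0.03 (-0.24 to 0.18) and 0.04 (-0.16 to 0.24). At this depth a change of E2F6 smaller than those bounds could not be seen. E2F3, E2F4 and E2F6 have processed pseudogenes in the genome, and how reads that match several places were counted is not given in the sources used here.

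The atypical repressors E2F7 and E2F8, which are known to form homodimers and heterodimers and to restrain E2F1, had BenSer ratios that lay apart. E2F8 (ENSG00000129173, chr11:19245610-19263167, minus strand) measured 20.8 and 21.2 CPM in the 2 control libraries, 19.6 and 19.6 in the GPNA libraries, and 11.5 and 10.8 in the BenSer libraries. The BenSer libraries were far below all others, and the GPNA libraries slightly below the control. The ratio was -0.10 (-0.23 to 0.03) with GPNA and -0.91 (-1.06 to -0.77) with BenSer, 0.531 times the control, which ranked 189 from the lowest of 15362 genes.

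E2F7 (ENSG00000165891, chr12:77415028-77459349, minus strand) measured 33.7 and 35.1 CPM in the 2 control libraries, 36.1 and 36.0 in the GPNA libraries, and 35.1 and 36.1 in the BenSer libraries. All 4 treated libraries lay above the control ones, the lower BenSer library only just. E2F7 had the highest ratio of the family with either compound, 0.07 (-0.03 to 0.17) with GPNA and 0.05 (-0.04 to 0.14) with BenSer. E2F8 accordingly took 37.9% (36.0% to 39.8%) of the reads of the pair in the control, 35.2% (33.4% to 37.0%) under GPNA and 23.9% (22.3% to 25.4%) under BenSer. The BenSer libraries, at 24.7% and 23.0%, lay below all others, which ran from 35.1% to 38.2%.

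**Figure D2:**
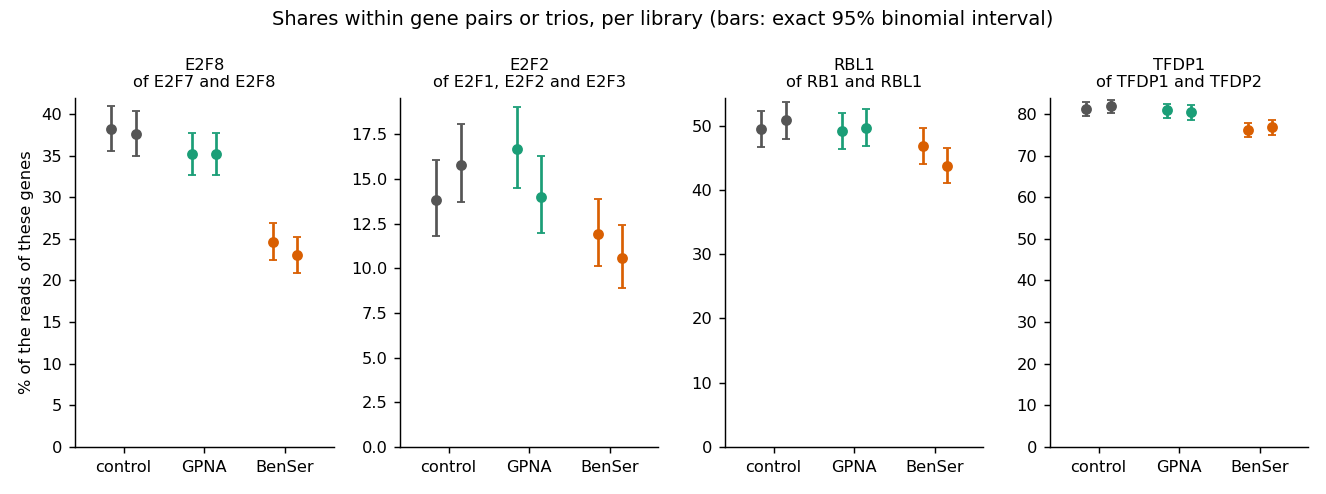
Share of reads (vertical axis, %, from 0) taken by E2F8 within E2F7 and E2F8, by E2F2 within the 3 activators, by RBL1 within RB1 and RBL1, and by TFDP1 within TFDP1 and TFDP2, for each library by group (horizontal axis) with its exact 95% binomial interval. The E2F8 share of the BenSer libraries, 24.7% and 23.0%, is below that of the other 4 libraries, 35.1% to 38.2%.

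RB1, the retinoblastoma protein that binds chiefly the activators (ENSG00000139687, chr13:48877880-49173572, plus strand), measured 27.4 and 25.7 CPM in the 2 control libraries, 24.8 and 22.9 in the GPNA libraries, and 21.1 and 22.4 in the BenSer libraries. The treated libraries lay below both control libraries, and the BenSer libraries below both GPNA libraries. The ratio was -0.15 (-0.27 to -0.04) with GPNA and -0.28 (-0.40 to -0.17) with BenSer.

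RBL1, the pocket protein p107 that binds chiefly E2F4 and E2F5 and whose gene is itself an E2F target (ENSG00000080839, chr20:35624752-35724400, minus strand), measured 26.8 and 26.5 CPM in the 2 control libraries, 24.1 and 22.6 in the GPNA libraries, and 18.6 and 17.4 in the BenSer libraries. The groups did not overlap, the order being control, GPNA, BenSer. The ratio was -0.19 (-0.31 to -0.07) with GPNA and -0.57 (-0.68 to -0.45) with BenSer, 0.676 times the control. RBL1 fell just short of the 1.5-fold threshold with BenSer and passed it, at -0.61, without BenSer replicate 1. In the BenSer libraries it took 45.3% (43.3% to 47.2%) of the reads of RB1 and RBL1, against 50.1% (48.1% to 52.1%) in the control and 49.5% (47.5% to 51.5%) with GPNA. RBL1 shares 213 exon bases, 3.58% of its exons, with a long non-coding RNA on the opposite strand.

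RBL2, the third pocket protein (p130), which predominates in resting cells, stood at 23.3 CPM in the control, 26.6 under GPNA and 24.6 under BenSer. Its ratio was 0.19 (0.07 to 0.31) with GPNA and 0.08 (-0.03 to 0.20) with BenSer. The 3 pocket protein genes thus stood at RBL1 lowest, RB1 next and RBL2 highest relative to the control with either compound. With GPNA, however, the intervals of RBL1 (-0.31 to -0.07) and RB1 (-0.27 to -0.04) overlapped, so that the order of RBL1 and RB1 was not resolved.

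**Figure D3:**
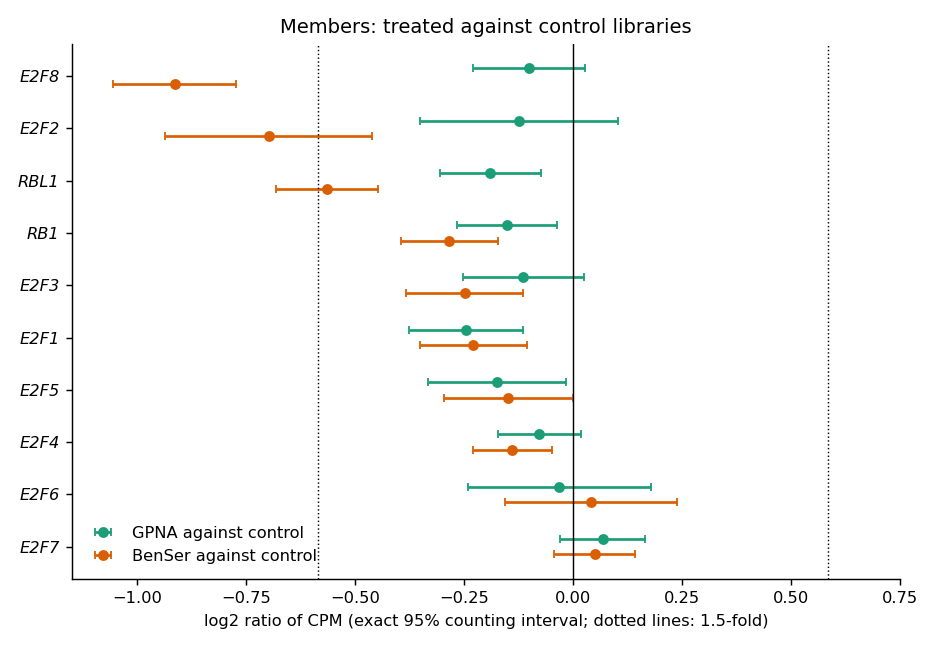
Log2 ratio of treated to control CPM (horizontal axis) for each member (vertical axis), with exact 95% counting intervals. GPNA is green, BenSer is orange, and dotted lines mark a 1.5-fold difference. With BenSer the points for E2F8 (-0.91) and E2F2 (-0.70) lie beyond the dotted line and RBL1 (-0.57) just inside it, and with GPNA all 10 lie inside.

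Set side by side, BenSer at 10 mM and GPNA at 1 mM differ in dose as well as in compound, and these cannot be told apart here. The BenSer to GPNA ratio was -0.81 (-0.95 to -0.67) for E2F8, -0.57 (-0.81 to -0.34) for E2F2 and -0.37 (-0.49 to -0.26) for RBL1. E2F8 alone was at least 1.5-fold lower, 1 of 10 members where 4.58% of 15514 genes were lower and 4.01% higher. E2F2 passed as well without GPNA replicate 2 (-0.71), without BenSer replicate 1 (-0.64), or when libraries were scaled to the reads on listed genes. In all, 7 ratios were below 0 and 3 above it, where 51.0% and 49.0% of genes were. By the counting interval, E2F2, E2F3, E2F8, RB1 and RBL1 lay below 0 (23.5% of genes) and no member above it (25.1%), and the interval of E2F3 spanned 0 under TMM or size factors. For the other 7 members the ratio lay between -0.13 (E2F3 and RB1) and 0.07 (E2F6).

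Between genes, levels can be compared only per length. Per kilobase of merged exons of the GENCODE annotation, the control order of CPM per kb was E2F4 (10.5), E2F1 (8.0), E2F7 (5.47), E2F8 (5.08), RBL1 (4.47), RB1 (4.12), E2F3 (3.53), E2F5 (2.40), E2F6 (1.93) and E2F2 (1.27). Merged exons join all annotated transcripts of a gene, expressed or not. The intervals cover counting error only and no error in these lengths. Neighbours in this order whose intervals overlapped were E2F7 and E2F8, and RBL1 and RB1. With GPNA the order was the same, and the intervals of RBL1 and RB1 and of E2F5 and E2F6 overlapped. With BenSer E2F8 stood at 2.70 (2.50 to 2.90), moving from place 4 to place 7, behind RB1, RBL1 and E2F3. Its interval overlapped those of E2F3 (2.79 to 3.16) and RBL1 (2.85 to 3.20), so the order of these genes was not resolved. The intervals of RBL1 and E2F3 and of E2F5 and E2F6 overlapped as well. E2F4, E2F1 and E2F7 kept the highest 3 places in the 3 groups and E2F2 the lowest.

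**Figure D4:**
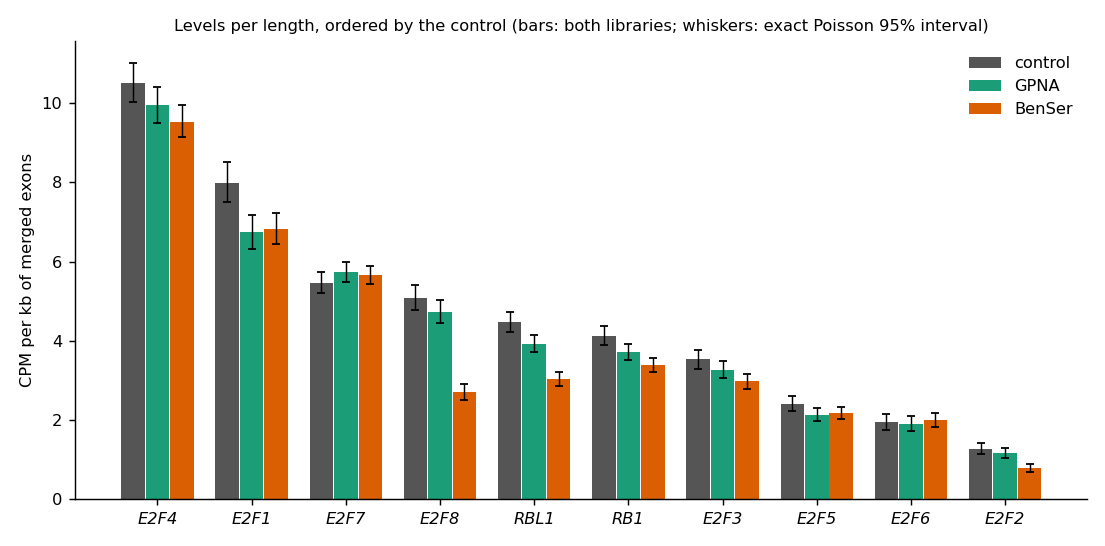
CPM per kb of merged exons (vertical axis, from 0) for the 10 members in the order of the control (horizontal axis). Bars are the merged libraries of the control, GPNA and BenSer and whiskers are exact Poisson 95% intervals. E2F8 stands next to E2F7 in the control (5.08 against 5.47) and well below it with BenSer (2.70).

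The other genes of the pathway, 38 measured of 40 in 7 lists, had a median ratio of -0.13 with GPNA and -0.21 with BenSer. At 1.5-fold, 0 were lower with either compound, 1 was higher with GPNA and 2 were higher with BenSer, where the shares over all genes are those given above. Of the DP partners that E2F1 to E2F6 need to bind DNA, TFDP1 was at 78.2 CPM in the control, 67.0 under GPNA and 56.4 under BenSer, with ratios of -0.22 (-0.29 to -0.16) and -0.47 (-0.54 to -0.40). TFDP2 had ratios of -0.13 (-0.28 to 0.01) and -0.03 (-0.16 to 0.11). TFDP1 took 81.6% (80.4% to 82.7%) of the reads of the pair in the control, 80.7% (79.4% to 81.8%) under GPNA and 76.5% (75.3% to 77.7%) under BenSer.

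Of the kinases and cyclins that phosphorylate the pocket proteins, 7 were measured, with medians of -0.17 with GPNA and -0.075 with BenSer, and 0 passed 1.5-fold with either compound. CDK4, the cyclin D kinase, was lowest with BenSer at -0.50 (-0.63 to -0.36), beside -0.17 (-0.31 to -0.04) with GPNA. CDK6, which has the same partners, ran the other way round, at -0.06 (-0.13 to 0.01) with BenSer and -0.34 (-0.42 to -0.27) with GPNA. CCNE2, a cyclin of CDK2, had ratios of -0.39 (-0.57 to -0.20) with BenSer and 0.12 (-0.06 to 0.30) with GPNA. For CCNE1, the other cyclin E gene, they were 0.01 (-0.25 to 0.28) and 0.29 (0.03 to 0.56). CCND1, the most abundant of these genes by CPM, was at 578 CPM in the control, 509 under GPNA and 549 under BenSer.

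The CDK inhibitors, which keep the pocket proteins active, were the pathway list with genes past 1.5-fold. CDKN1A (p21) stood at 8.31 CPM in the control, 12.6 under GPNA and 17.1 under BenSer, with ratios of 0.60 (0.42 to 0.79) and 1.04 (0.87 to 1.21). With GPNA it fell short of 1.5-fold without GPNA replicate 1 (0.50) or without control replicate 1 (0.58). CDKN2B (p15), an inhibitor of CDK4 and CDK6, stood at 24.0, 28.2 and 42.6 CPM, with ratios of 0.24 (0.12 to 0.35) and 0.83 (0.73 to 0.93). In contrast CDKN2C (p18) was lower with BenSer, at -0.40 (-0.53 to -0.27), and -0.06 (-0.19 to 0.07) with GPNA. Over the 7 inhibitors the median was 0.081 with GPNA and 0.25 with BenSer.

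The MuvB and DREAM subunits join RBL1 or RBL2 and E2F4 to silence cell cycle genes, or MYBL2 to activate them. For the 7 genes of this list the median was -0.071 with GPNA and -0.29 with BenSer, and 0 passed 1.5-fold. MYBL2 (B-MYB), the activating partner, had ratios of -0.31 (-0.39 to -0.24) and -0.42 (-0.50 to -0.35), and the core subunit LIN9 had ratios of -0.10 (-0.20 to 0.00) and -0.48 (-0.59 to -0.38). The 7 partners of E2F6 had medians of -0.13 and -0.10. The 5 chromatin enzymes that RB1 recruits had medians of -0.16 and -0.29, with SUV39H1, a histone methyltransferase, lowest with BenSer at -0.48 (-0.65 to -0.31). Of the 3 genes for degradation of E2F proteins, CCNF (cyclin F) had ratios of -0.33 (-0.47 to -0.18) and -0.38 (-0.52 to -0.25) and SKP2 -0.20 (-0.28 to -0.11) and -0.34 (-0.43 to -0.26).

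The 37 E2F targets of G1/S, genes for replication licensing, DNA synthesis and nucleotide supply, had ratios below 0 with both compounds. With BenSer 15 of 37 were at least 1.5-fold lower and 0 higher, where 5.54% and 5.32% of all genes were, and the median was -0.56. All 37 intervals lay below 0 under each scaling, where 29.9% of all genes did by library total and 24.8% under TMM. The 15 became 13 with a pseudocount of 1, 14 under TMM or size factors, and 16 or 17 without 1 library. At a log2 threshold of 0.32 the count was 36, and at 2-fold it was 0. With GPNA 0 of 37 passed 1.5-fold and the median was -0.19. All 37 GPNA ratios were below 0, as were 26 intervals, where 59.2% of ratios and 24.2% of intervals of all genes were. The cyclin E genes CCNE1 and CCNE2 were listed with the kinases and not here. Their GPNA ratios were above 0, at 0.29 and 0.12, and their BenSer ratios were 0.01 and -0.39. Under each of the 3 other scalings 34 GPNA ratios were below 0, with 24 intervals under TMM or size factors and 25 when scaled to the reads on listed genes. Under TMM 50.7% of ratios and 17.4% of intervals of all genes lay below 0. TYMS (thymidylate synthase) and RRM2 (a ribonucleotide reductase subunit) were lowest with BenSer, at -0.89 (-1.06 to -0.72) and -0.84 (-0.89 to -0.79). Their GPNA ratios were -0.30 (-0.47 to -0.14) and -0.31 (-0.36 to -0.26). CHEK1 (a checkpoint kinase), BARD1 (the partner of BRCA1) and SLBP (the histone mRNA binding protein) were highest with BenSer, at -0.31 (-0.40 to -0.22), -0.35 (-0.47 to -0.24) and -0.39 (-0.51 to -0.27). Their GPNA ratios were -0.07 (-0.16 to 0.02), -0.02 (-0.14 to 0.10) and -0.16 (-0.28 to -0.05).

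Seen beside their targets, the activators E2F1 (-0.23) and E2F3 (-0.25) had BenSer ratios nearer to 0 than all 37 targets. E2F2 (-0.70) and RBL1 (-0.57) lay within the range of the targets, -0.89 to -0.31, and E2F8 (-0.91) below it. E2F7 (0.05), also named above as a known E2F target, lay above that range. With GPNA the targets ran from -0.43 to -0.0005. E2F1 (-0.25), E2F2 (-0.12), E2F3 (-0.11), E2F8 (-0.10) and RBL1 (-0.19) all lay within that range, and E2F7 (0.07) lay above it. The E2F core letters described above occurred in 13 of the 32 targets that had a window. Only the first listed window of each target was searched, whereas every window of a member was. The 7 apoptosis genes described as E2F1 targets had medians of 0.048 with GPNA and 0.21 with BenSer. PMAIP1 (NOXA), a BH3-only protein, had a BenSer ratio of 0.41 (0.30 to 0.52) and a GPNA ratio of 0.17 (0.05 to 0.29). BBC3 (PUMA) passed 1.5-fold with both, at 0.98 (0.09 to 1.94) with GPNA and 0.85 (-0.02 to 1.79) with BenSer, on 16 reads in the control, and without control replicate 1 it did not, at 0.39 and 0.26. TP73, a relative of p53, had a BenSer ratio of -0.17 (-0.70 to 0.37) and a GPNA ratio of 0.33 (-0.18 to 0.85), and BCL2L11 (BIM) had ratios of 0.16 (-0.01 to 0.34) and -0.26 (-0.45 to -0.06).

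**Figure D5:**
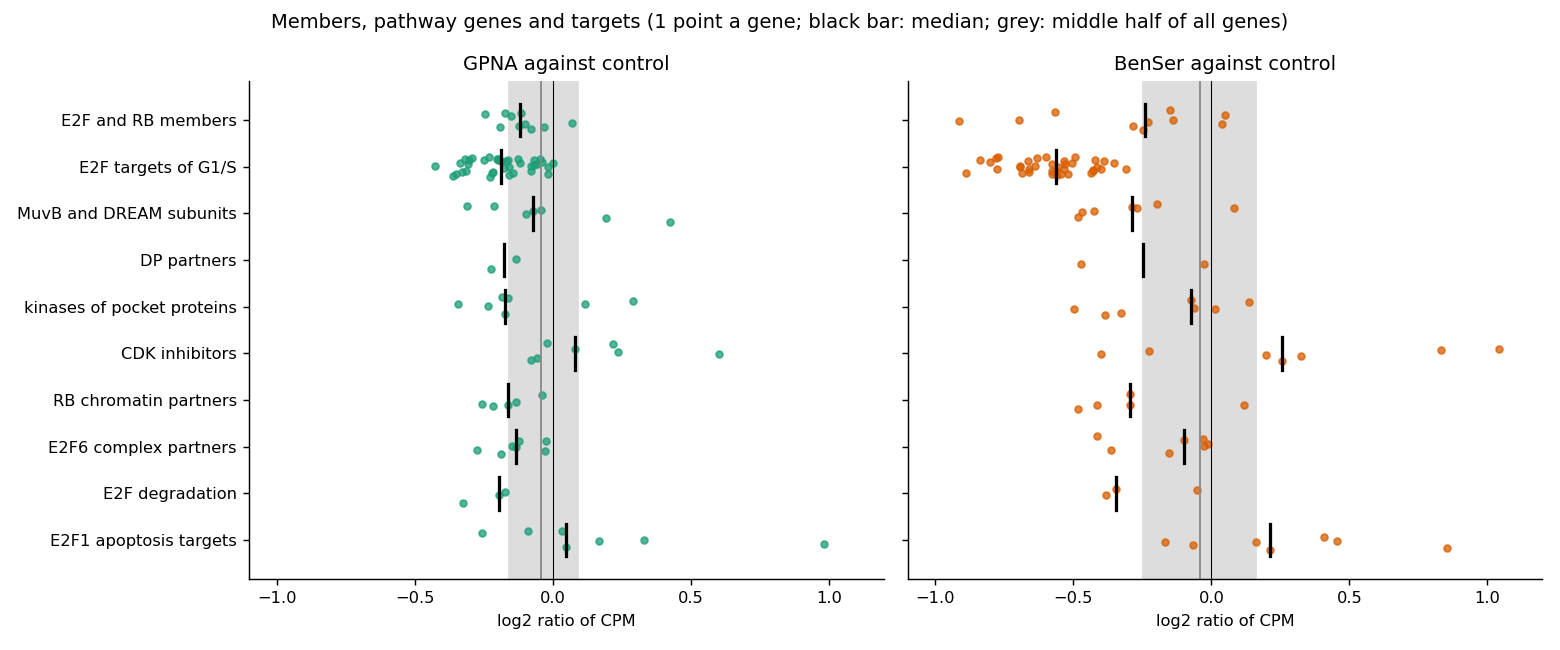
Log2 ratios of treated to control CPM (horizontal axis) for the members, the targets and each pathway list (vertical axis), with GPNA on the left and BenSer on the right. Each point is 1 gene, black bars are list medians, the grey line is the median of all measured genes and the grey band spans their quartiles. The 37 targets of G1/S centre on -0.19 with GPNA and -0.56 with BenSer.

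The genes whose pair of ratios lay closest to that of E2F8, by Euclidean distance over the 3 groups among 13248 genes, were TIMM8A (distance 0.027), PTPRG-AS1 (0.045) and TRIM52-AS1 (0.047), and 22 genes lay within 0.1. For E2F2 they were ACN9 (0.0088), DTL (0.016) and HIST1H2AI (0.019), and 112 genes lay within 0.1. These distances are descriptive and rest on 2 ratios that share a control.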

How the data were processed

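Total RNA of PC-3 cells was sequenced as stranded paired-end libraries. According to the study's methods the authors trimmed the reads, used TopHat2 to map against hg19/GRCh37.p13 and scaled the reads of each gene to the library size, and the submitters' processing notes also name Bowtie2, HTSeq (0.6.2p2) and DESeq. The deposited value columns are named as counts but hold CPM. In 100% of values a whole number of reads was recovered (tolerance 0.01 reads). Only columns 1 and 2 of each group match a sample title, and the other 8 of 16 value columns (6 distinct) were not analysed. The deposited log2 fold changes, average log2 CPM, p-values and false discovery rates of the authors' exact tests were not used.

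As planned for columns that differ by about sampling noise, both columns were merged into 1 sample per group. On genes with 20 or more reads a chi-square test still found a small excess within each group (p = 1.29e-08 between the control columns, 3.24e-05 between those of GPNA and 9.59e-06 between those of BenSer). Log2 ratios of merged CPM, without pseudocount, were taken for genes with at least 50 reads in the compared groups together, with exact Clopper-Pearson intervals. Fits with limma (3.58.1), edgeR (4.0.16) and DESeq2 (1.42.0) entered the columns as 2 samples, compare libraries and not treatments, and were alternatives, Benjamini-Hochberg adjusted at 0.05. The scripts were tested on simulated data.

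The members, gene lists and rules were chosen with earlier results of these data known, and the counting-interval rule was added after seeing the data. The text names the members, any pathway gene, the 3 lowest and 3 highest targets with BenSer in each target list, and the 3 genes nearest to each member at least 1.5-fold changed with BenSer among genes with at least 1 CPM in the control. Some genes that this rule names are not reported here. Positions and exon lengths come from GENCODE 44 lifted to GRCh37, and promoters from RefSeq (GRCh38.p14). Python 3.11.15, numpy 2.4.6, pandas 2.3.3, scipy 1.17.1, matplotlib 3.10.9 and R 4.3.3 were used.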

Additional observations from a re-analysis of the deposited data

How the results depend on the processing

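Scaling (TMM, DESeq2 size factors, reads on listed genes), pseudocounts of 0.1 and 1, filters on low values and leaving out single libraries gave 360 alternative ratios of members. All 360 lay within the counting interval of the main value and 348 kept its sign. Under the same settings the medians of the members, the G1/S targets, the apoptosis genes and all pathway genes kept their sign. With BenSer the members ran from -0.27 to -0.19 and the G1/S targets from -0.58 to -0.52, and with GPNA from -0.12 to -0.079 and from -0.21 to -0.15. The scalings moved the median of all genes by less than 0.1. With 1 sample per group and intervals for counting error only, culture-to-culture variation is not covered, and low genes such as E2F2, E2F6 and BBC3 are limited by depth.

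Of the members, 2 were lower with BenSer by the main rule, 0 at 2-fold, 1 without control replicate 2, and 3 without BenSer replicate 1. Between BenSer and GPNA the count was 1, against 2 without GPNA replicate 2, 2 without BenSer replicate 1, 2 when scaled to listed genes, 3 at a log2 threshold of 0.32 and 0 at 2-fold, so that leaving out 1 library gave 1 to 2. By the counting interval the member counts lower were 4 with GPNA, 7 with BenSer and 5 between the treatments.

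For all genes with GPNA, 240 were lower and 361 higher. These became 12 and 64 with a pseudocount of 1, 964 and 1271 at a minimum of 5 reads on average, 131 and 206 at 1 CPM, 1131 and 1384 with no filter, 1161 and 1149 at a log2 threshold of 0.32, 25 and 68 at 2-fold, and 3642 and 1659 by the counting interval. Leaving out 1 library gave 327 to 380 lower, with 380 without GPNA replicate 1 and 363 without GPNA replicate 2. For BenSer, 851 and 817 became 299 and 370 (pseudocount 1), 1788 and 1552 (5 reads), 1986 and 1592 (no filter), 2822 and 2029 (0.32), 136 and 256 (2-fold), and 4591 and 3287 (interval). Between the treatments, 710 and 622 became in the same order 153 and 202, 1736 and 1263, 1877 and 1314, 2322 and 2022, 119 and 124, and 3650 and 3901, with 438 lower at 1 CPM. The filters and thresholds change these counts by construction.

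Given each column as a sample of its own, limma called 0 genes lower and 22 higher with GPNA (2731 and 1431 at an unadjusted p under 0.05, E2F1 and RBL1 among the lower), 3022 and 2134 with BenSer and 2154 and 2165 between the treatments. The members called lower were 0, 5 (E2F2, E2F3, E2F8, RB1 and RBL1) and 3 (E2F2, E2F8 and RBL1). On the recovered reads edgeR called 1656 and 1560, 3380 and 3462, and 3154 and 3403 genes, with 1 (E2F1), 6 and 4 members lower, and DESeq2 524 and 473, 1985 and 2017, and 1650 and 1875, with 0, 4 and 3.

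Whether the replicate numbers pair the samples could not be decided. The differences between columns 1 and 2 correlated at 0.011, 0.017 and 0.041 between groups across 10060 genes. These differences hardly exceed counting noise, so that even a shared replicate effect would leave little correlation. With a replicate block, limma called 0 and 0 genes with GPNA (2361 and 1399 at an unadjusted p under 0.05, E2F1, E2F5 and RBL1 among the lower), 2274 and 1569 with BenSer and 1232 and 1322 between the treatments, with 0, 3 and 3 members lower.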
